A study of Drosophila melanogaster with 6 samples.

Results

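Serpins are serine protease inhibitors, and the fruit fly (Drosophila melanogaster) encodes a family of them. An inhibitory serpin presents an exposed loop as bait. When a protease cuts the loop, the serpin changes shape and traps the enzyme in a covalent complex, so each inhibitor molecule is used once. In the fly they are best known as brakes on extracellular protease cascades, namely the cascade that activates the Toll ligand Spätzle in immunity and in the early embryo, and the cascade that activates prophenoloxidase for melanization. The serpin genes described here are all rows of the deposited table whose symbol is Spn followed by a digit, together with nec, which encodes the serpin Necrotic. This rule gave 28 of 15010 genes, 27 of them named Spn. It uses symbols only and no measured value. One more serpin gene, Acp76A, lies outside it and had at most 1 read in any library.

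Polyadenylated RNA was sequenced from adult progeny in 6 libraries labelled intestine. In 3 of them, the controls, the mothers were MTD-GAL4/+, and in the other 3, titled reprogrammed and here called the InR-DN group, the mothers were MTD-GAL4/InR-DN. MTD-GAL4 drives expression in the female germline, and InR-DN is a dominant-negative insulin receptor. All mothers were crossed to OregonR males, so all progeny can carry the driver and those of the second group also the transgene. An effect of the maternal germline and an effect of an inherited transgene cannot be told apart. The comparison asks whether metabolic stress of the mother is followed by a difference in the progeny. The sources used here state no age, sex or number of animals per library, and nothing says that libraries of a group came from separate crosses. The p-values therefore measure only the spread between these libraries, which may be technical. Values are TPM (transcript abundance per gene length), with equal totals in all libraries. Whole reads recovered from them summed to between 33952631 and 45186054 per library. InR itself lay at 18.7 to 22.8 TPM in the progeny, where transgene reads are not separated.

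The tissue label does not cover all the RNA in the libraries. The 10 midgut markers summed to 13000 to 19230 TPM per library, led by alphaTry and yip7, both digestive proteases. The 8 photoreceptor markers, led by the rhodopsin ninaE and the arrestin Arr2, summed to 3647 to 5006 TPM, and the 8 ovary markers, led by osk and the eggshell gene Cp36, to 1103 to 1721 TPM. Of 10 fat body markers, 3 lay under 1 TPM everywhere, while the yolk protein genes Yp1 and Yp3 carried most of a sum of 12550 to 16930 TPM. The 8 hemocyte markers, led by the prophenoloxidase genes PPO1 and PPO2, summed to 124.1 to 164.3 TPM. All 6 male accessory gland markers in the table lay under 1 TPM in every library, the highest means being those of Acp26Aa and Acp26Ab. Many serpins are made by fat body and hemocytes and secreted into the hemolymph. In such mixed RNA, fewer cells of a type and less RNA per cell cannot be told apart.

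Serpin levels differed widely between genes. Of the 28 genes, 2 averaged over 100 TPM, 8 lay between 10 and 100 TPM, 8 between 1 and 10 TPM and 10 under 1 TPM. The 28 together made up 732, 733 and 659.6 TPM in control replicates 1 to 3 and 622, 765 and 651 TPM in InR-DN replicates 1 to 3. The InR-DN libraries thus held both the lowest and the highest sum, and the control libraries lay between them. The mean sum was 708 ± 42.3 TPM in controls and 679 ± 75.4 TPM in the InR-DN group (SD, n = 3 per group; two-sided exact permutation test, p = 0.6, where the smallest p this design allows is 0.1). The 4 most abundant genes, Spn43Ab, Spn88Ea, nec and Spn42Da, supplied 66.9% to 70.4% of that sum in every library. By mean TPM, Spn43Ab ranked number 577 of all 15010 genes, Spn88Ea number 1550 and nec number 2469.

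**Figure D1:**
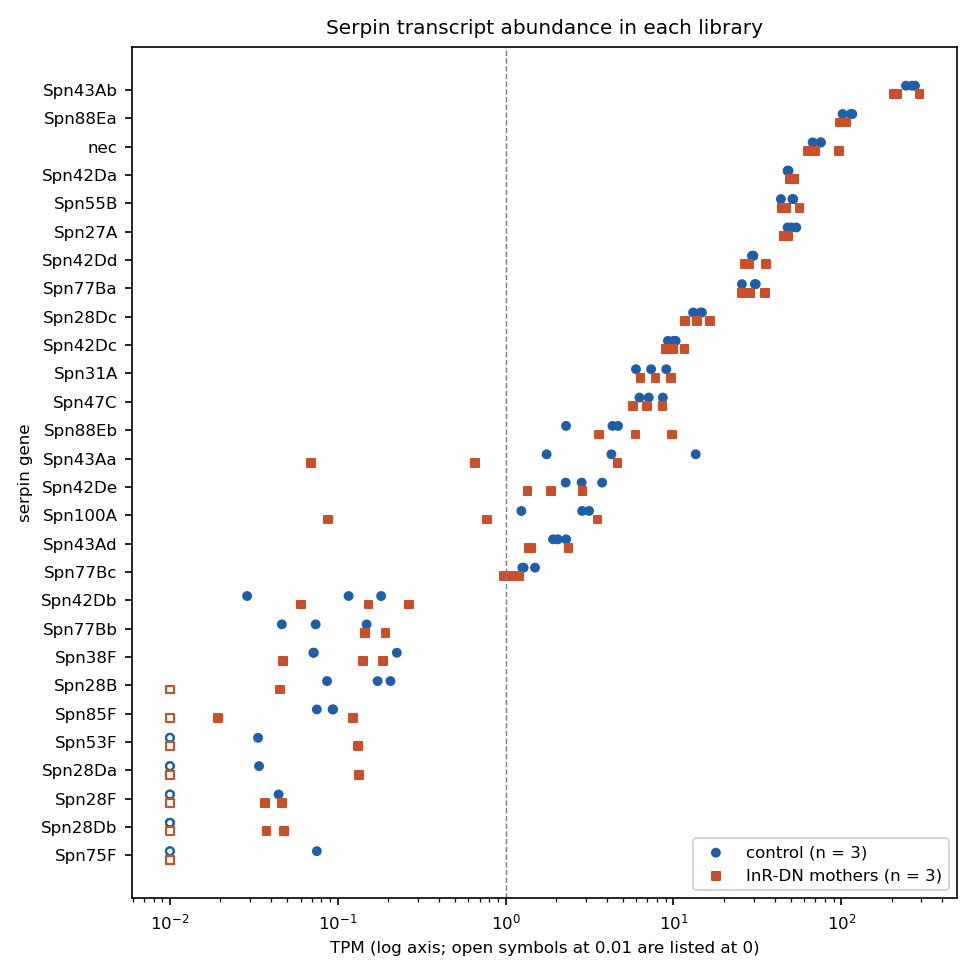
Abundance of all 28 serpin genes in TPM (log axis), 1 symbol per library, with controls as circles and the InR-DN group as squares. Open symbols at the left edge are listed at 0, and the dashed line marks 1 TPM, which 10 genes did not reach in any library.

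The genes are unevenly placed in the genome. In the BDGP6.54 annotation 8 lie on arm 2L, 12 on 2R, 4 on 3L and 4 on 3R. Of the 28 genes, 16 fall into 5 groups of neighbours with gaps under 25000 bases. The densest holds Spn42Da, Spn42Db, Spn42Dc, Spn42Dd and Spn42De within 12357 bases of arm 2R. A second, 10550 bases of 2R, holds Spn43Aa, Spn43Ab, Spn43Ad and nec. Within most of these groups the levels differed, while Spn28Da and Spn28Db on arm 2L averaged 0.028 and 0.0142 TPM. Within the first group mean abundance ran from 0.134 TPM for Spn42Db to 49.7 TPM for Spn42Da, and within the second from 1.91 TPM for Spn43Ad to 249 TPM for Spn43Ab. Spn88Ea averaged 106.8 TPM and the adjacent Spn88Eb 5.10 TPM. On arm 3L Spn77Ba averaged 29.3 TPM, while Spn77Bb, 835 bases away, averaged 0.126 TPM.

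Of the 28 genes, 18 reached 1 TPM in at least 3 libraries and were tested with the other genes of the table, 10816 in all. None of the 18 passed limma at an adjusted p of 0.05, as none of the 10816 did (0%), and each serpin had an adjusted p of 1.00. Also none of the 18 had an unadjusted p under 0.05, against 3.15% of all tested genes, and limma voom on the recovered reads likewise gave 0 of 18 at either level. The smallest unadjusted limma p was 0.103, for Spn43Aa. The InR-DN mean was higher for 8 and lower for 10 genes on the log2(TPM + 1) scale. Their median log2 fold change was -0.03, against 0.01 for all tested genes, and 14 of 18 lay within 0.2 of 0, against 85.7% of all tested genes. The 95% confidence interval stayed within 0.5 log2 units of 0 for 12 genes and within 1 unit for 15. Log2 fold changes on this scale understate differences of genes near 1 TPM.

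**Figure D2:**
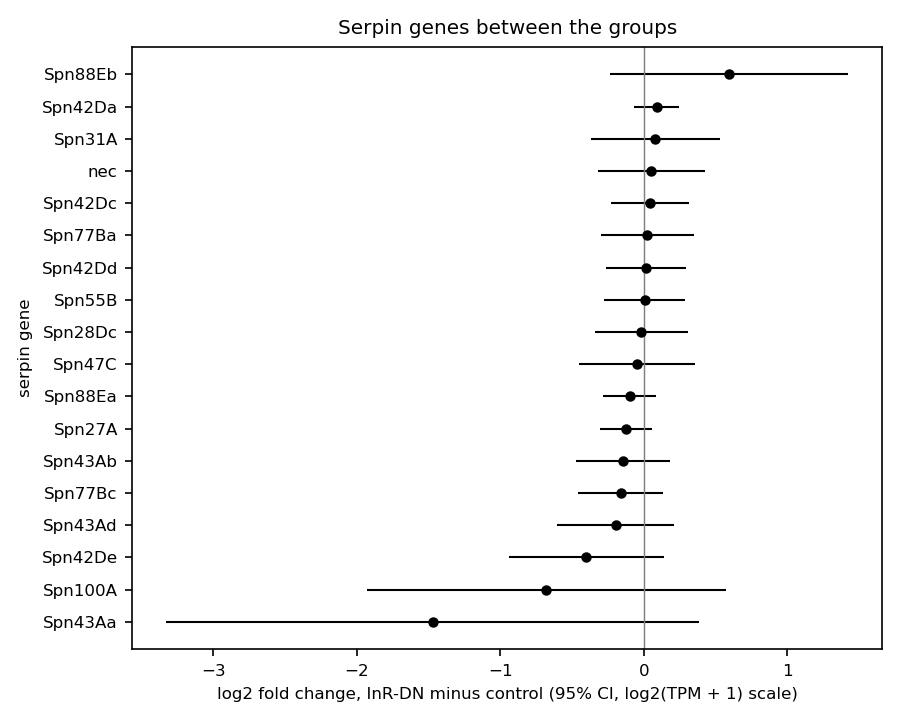
Log2 fold change of the 18 tested serpin genes between the InR-DN and control groups (points, limma on log2(TPM + 1), n = 3 per group) with 95% confidence intervals (bars). Every interval includes 0, and the widest belong to Spn43Aa, Spn100A and Spn88Eb.

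None of the serpins that restrain the Toll cascade passed the test, and the groups overlapped for each. Necrotic blocks the Persephone branch, by which microbial proteases activate Toll. The gene nec (FBgn0002930; arm 2R, 7156477 to 7158241) lay at 75.6, 75.2 and 67.5 TPM in control replicates 1 to 3 and at 63.6, 96.4 and 69.8 TPM in InR-DN replicates 1 to 3. The InR-DN libraries held its lowest and its highest value, and the groups overlapped. The log2 fold change was 0.05 (standard error 0.16, limma, 95% interval -0.32 to 0.42). Spn88Ea (FBgn0028984; arm 3R, 15203069 to 15206447) limits Toll signalling in immunity and acts in wing expansion. It lay at 116.2, 113.6 and 101.7 TPM in controls and at 105, 97.6 and 106.4 TPM in the InR-DN group. Both groups kept within a narrow band, with a log2 fold change of -0.10 (standard error 0.08, 95% interval -0.28 to 0.09). Spn42Dd, formerly Spn1, limits Toll activation after fungal recognition. It lay at 29.8, 29.3 and 29.8 TPM in controls and at 26.8, 35.7 and 28.3 TPM in the InR-DN group. Its control libraries were almost equal and lay inside the InR-DN range (log2 fold change 0.02, standard error 0.12). Its gene and Spn42Dc overlap on the same strand by 63 exonic bases, so some reads may belong to either. Spn27A, which restrains both melanization and the protease that activates the Toll ligand in the embryo, lay at 47.9, 53.9 and 50.3 TPM in controls and at 45.5, 48.0 and 45.7 TPM in the InR-DN group. InR-DN replicate 2 exceeded control replicate 1, so the groups just overlapped (log2 fold change -0.12, standard error 0.08, 95% interval -0.30 to 0.06). Spn27A lies within the ovarian gene cup on the opposite strand, without shared exon bases.

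The other serpins of melanization also had overlapping groups. Spn28Dc limits phenoloxidase activity after wounding. It lay at 14.5, 14.8 and 13.1 TPM in controls and at 11.7, 16.6 and 13.8 TPM in the InR-DN group. The InR-DN values bracketed the controls (log2 fold change -0.02, standard error 0.14). Spn77Ba prevents melanization of the tracheae. It lay at 30.5, 30.9 and 25.6 TPM in controls and at 28.4, 35.0 and 25.6 TPM in the InR-DN group. Replicate 3 of both groups was almost equal (log2 fold change 0.02, standard error 0.14).

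Spn42Da, formerly Spn4, encodes inhibitors of furin-like proprotein convertases of the secretory pathway and was the steadiest member. It lay at 48.4, 47.9 and 48.0 TPM in controls and at 49.2, 52.2 and 52.6 TPM in the InR-DN group. All InR-DN libraries lay above all controls, by a log2 fold change of 0.09 (standard error 0.07, limma, adjusted p = 1.00, 95% interval -0.07 to 0.25). Spn77Bc was the other tested gene whose groups did not overlap. It lay at 1.50, 1.28 and 1.26 TPM in controls and at 0.979, 1.21 and 1.10 TPM in the InR-DN group, that is lower in all 3 InR-DN libraries (log2 fold change -0.16, standard error 0.12, adjusted p = 1.00 by limma). Its values rested on 25 to 43 reads per library. These 2 of 18 genes (11.1%) compare with 6.36% of all tested genes whose groups did not overlap, 2.58% with the InR-DN group higher and 3.78% with it lower.

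The most abundant member was Spn43Ab (FBgn0024293; arm 2R, 7151662 to 7153642), whose values rested on 4855 to 8696 reads. It lay at 263.5, 274.7 and 242.8 TPM in controls and at 215.5, 292 and 206.9 TPM in the InR-DN group. InR-DN replicates 1 and 3 lay below every control and InR-DN replicate 2 above every control. The log2 fold change was -0.14 (standard error 0.14, limma, 95% interval -0.47 to 0.18). Without InR-DN replicate 2 it was -0.30, with an unadjusted limma p of 0.00543 and an adjusted p of 0.442. The adjacent Spn43Ad had the same arrangement at a low level. It lay at 2.30, 1.92 and 2.05 TPM in controls and at 1.42, 2.37 and 1.38 TPM in the InR-DN group. Its log2 fold change was -0.20, and without InR-DN replicate 2 it was -0.36, with an unadjusted limma p of 0.037 and an adjusted p of 0.537. Spn43Ab, Spn43Ad and nec all lie within the gene pk on the opposite strand, with no exon bases in common, and pk itself lay at 1.08 to 1.98 TPM.

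InR-DN replicates 1 and 2 lay furthest from the other libraries in the median over the tested serpins. InR-DN replicate 2 had the highest value of the 6 libraries for 8 of 18 tested serpins (44.4%), against 17.1% of all tested genes. It had the lowest for 3 of 18, against 40% of all tested genes. It was also the highest library for 8 of 16 genes of the extracellular Toll cascade and for 6 of 10 melanization genes. Other Toll lists differed. InR-DN replicate 2 was highest for 1 and lowest for 6 of 8 intracellular Toll pathway genes, and highest for 2 of 9 tested Toll targets. It was lowest for 4 of the 16 extracellular genes. The Toll lists do not separate genes used in immunity from those used in the early embryo. InR-DN replicate 1 had the lowest value for 7 of 18 (38.9%), against 17.8% of all tested genes. It had the highest for 0 of 18, against 38.8% of all tested genes. The median deviation of the 18 genes from their own means was 0.149 log2 units in InR-DN replicate 2 and -0.18 in InR-DN replicate 1, while the medians over all tested genes were -0.0702 and 0.0491. The order of these libraries is therefore opposite for the serpins and for the average gene. Without InR-DN replicate 2, 14 of 18 serpins had lower and 4 higher InR-DN means on the log2(TPM + 1) scale. Of the 18, 2 had an unadjusted limma p under 0.05 (11.1%), against 8.66% of all tested genes, and none passed the adjusted p. The same split of 14 lower and 4 higher arose without control replicate 3, there with none under an unadjusted p of 0.05. Without control replicate 2 it was 8 lower and 10 higher. Of the photoreceptor markers, 6 of 8 were highest in InR-DN replicate 2, with a sum of 5006 TPM there against 3647 TPM in InR-DN replicate 1. Hemocyte markers summed to 164.3 TPM in InR-DN replicate 2, the highest of all libraries, though only 3 of 8 were highest there. They summed to 131.8 TPM in InR-DN replicate 1 and to 124.1 TPM, their lowest sum, in control replicate 3. The sum of the fat body list did not follow this order. It was 16540 TPM in InR-DN replicate 2 and 13600 TPM in InR-DN replicate 1. It was highest in control replicate 2 (16930 TPM) and lowest in InR-DN replicate 3 (12550 TPM). Yp1 and Yp3 carried most of this sum, so it tells little of the other markers on the list. Of 6 tested fat body markers, 1 was highest in InR-DN replicate 2. Of the 8 ovary markers, 3 were highest and 3 lowest in InR-DN replicate 2. The part of any of these cell types in the serpin values was not tested.

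**Figure D3:**
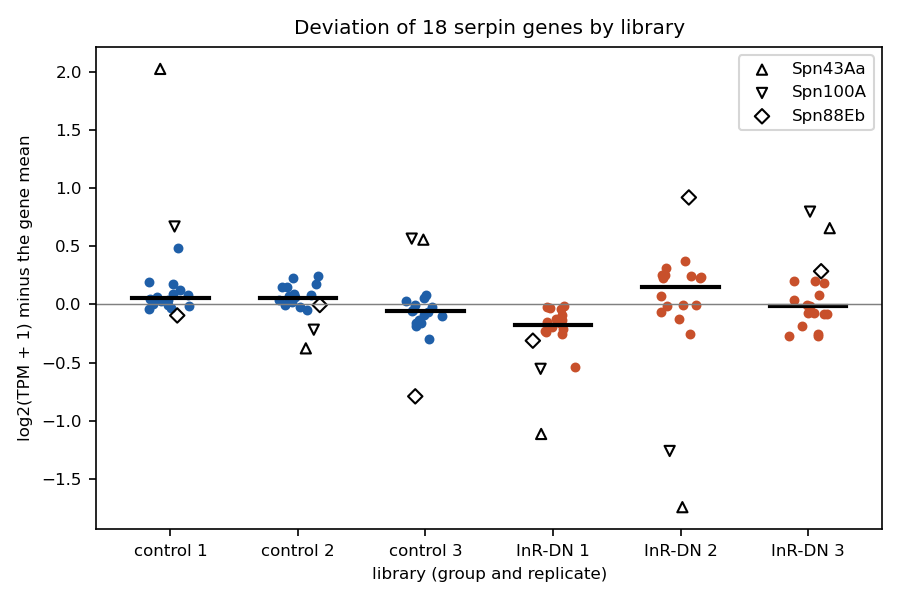
Deviation of each of 18 tested serpin genes from its own mean over 6 libraries (log2(TPM + 1) units), by library, with medians as horizontal bars. The median is highest in InR-DN replicate 2 (0.149) and lowest in InR-DN replicate 1 (-0.18), and the 3 genes drawn with open symbols spread furthest.

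Spn43Aa, Spn100A and Spn88Eb were the variable members, each with a residual SD over 0.5 log2 units within the groups. That is 3 of 18 serpins, against 4.16% of all tested genes. The median residual SD was 0.195 for the serpins and 0.145 for all tested genes. Spn43Aa (FBgn0024294; arm 2R, 7147692 to 7149289) lay at 13.6, 1.76 and 4.27 TPM in controls and at 0.654, 0.069 and 4.64 TPM in the InR-DN group. InR-DN replicate 3 exceeded control replicates 2 and 3, and InR-DN replicate 2 held only 2 reads against 326 in control replicate 1. The span within the InR-DN group was 67.2-fold and within controls 7.73-fold. The log2 fold change of -1.47 (standard error 0.78, 95% interval -3.33 to 0.39) was the largest of the family. Leaving out control replicate 1 gave -0.82, and leaving out InR-DN replicate 2 gave -0.96. Without InR-DN replicate 3 it was -2.16, with an unadjusted limma p of 0.0202 and an adjusted p of 1.00. Without control replicate 2 it was -2.025, with an unadjusted limma p of 0.0398. In that last fit 5.56% of tested serpins had an unadjusted p under 0.05, against 2.63% of all tested genes. No serpin passed the adjusted p there. With a pseudocount of 0.1 the log2 fold change of Spn43Aa was -2.51 and with voom -2.90. Spn43Aa shares 116 exonic bases with CG12828 on the opposite strand, which had at most 3 reads in any library.

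Spn100A, on arm 3R, ordered the libraries in a similar way. It lay at 3.15, 1.24 and 2.86 TPM in controls and at 0.775, 0.0877 and 3.53 TPM in the InR-DN group. InR-DN replicate 3 was the highest library and InR-DN replicate 2, with 4 reads, the lowest. The log2 fold change was -0.68 (standard error 0.52, limma, 95% interval -1.93 to 0.57), and without InR-DN replicate 2 it was -0.22. Without InR-DN replicate 3 it was -1.25, with an unadjusted limma p of 0.0127 and an adjusted p of 1.00. The eggshell genes Cp36 and Vm32E also varied widely between the libraries, but in orders other than those of Spn43Aa and Spn100A. Cp36, a chorion protein gene, lay at 0.193, 467 and 498 TPM in controls and at 446, 27.7 and 1.17 TPM in the InR-DN group. Vm32E, a vitelline membrane protein gene, lay at 3.02, 47.8 and 0.346 TPM in controls and at 7.01, 99.5 and 74.1 TPM in the InR-DN group. Control replicate 1, the highest for Spn43Aa, was the lowest for Cp36, and InR-DN replicate 2, the lowest for both serpins, was the highest for Vm32E. The part of egg chamber stages in the serpin values was not tested.

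**Figure D4:**
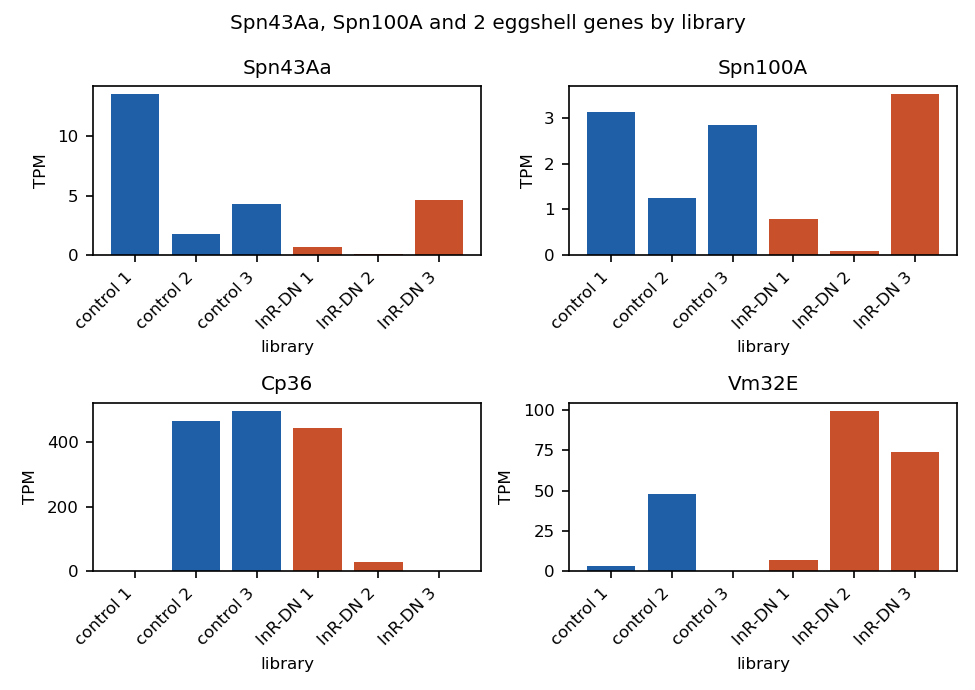
TPM by library of the serpin genes Spn43Aa and Spn100A and of the eggshell genes Cp36 and Vm32E (bars, 1 library each, controls in blue and the InR-DN group in red). Spn43Aa and Spn100A are lowest in InR-DN replicate 2, where Vm32E is highest at 99.5 TPM.

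Spn88Eb (arm 3R) had the largest positive log2 fold change. It lay at 4.33, 4.67 and 2.29 TPM in controls and at 3.59, 9.77 and 5.94 TPM in the InR-DN group. InR-DN replicate 1 lay below control replicates 1 and 2, so the groups overlapped. The log2 fold change was 0.59 (standard error 0.35, limma, adjusted p = 1.00, 95% interval -0.23 to 1.42). It was 0.28 without InR-DN replicate 2 and 0.35 without control replicate 3. It was 0.90 without InR-DN replicate 1, with an unadjusted limma p of 0.0287. In that fit 5.56% of tested serpins had an unadjusted p under 0.05, against 3.48% of all tested genes. No serpin passed the adjusted p there. Its neighbour Spn88Ea, described above, had the opposite sign and a standard error of 0.08. The highest library of Spn88Eb, InR-DN replicate 2, and its lowest, control replicate 3, were also those of the eggshell gene Vm32E. For Cp36 control replicate 3 was the highest. A link to eggshell genes was not tested.

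The remaining tested members have no role assigned here, and none passed the test. Spn42De lay at 3.76, 2.84 and 2.28 TPM in controls and at 1.35, 1.86 and 2.87 TPM in the InR-DN group, with InR-DN replicate 3 above control replicates 2 and 3. Its log2 fold change was -0.40 (standard error 0.23, limma, 95% interval -0.94 to 0.14), and without InR-DN replicate 3 it was -0.59 with an unadjusted limma p of 0.0314. In that fit Spn42De, Spn43Aa and Spn100A, 3 of 18 serpins (16.7%), had an unadjusted p under 0.05, against 3.3% of all tested genes. None of them passed the adjusted p. Spn55B ranged from 43.7 to 56.4 TPM over the 6 libraries, Spn42Dc from 9.07 to 11.6 TPM, Spn31A from 5.98 to 9.66 TPM and Spn47C from 5.74 to 8.64 TPM. The log2 fold changes of these 4 genes lay between -0.05 and 0.08, and their groups overlapped.

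The 10 members that were not tested held at most 7 reads in any library, or 0.266 TPM. They are Spn28B, Spn28Da, Spn28Db, Spn28F, Spn38F, Spn42Db, Spn53F, Spn75F, Spn77Bb and Spn85F. Together they had 15 to 22 reads per library, and 7 of the 10 had 0 reads in at least 1 library, where a count of 0 allows up to 3 reads. Spn28B had 2, 6 and 5 reads in controls and 0, 0 and 1 reads in the InR-DN group. The controls were higher in each case, but by no more than 6 reads, and the other 9 had overlapping groups. Spn53F shares 1279 exonic bases with the noncoding gene CR45272 on the opposite strand, and the sources used here do not state whether counting used strand. For the 9 genes with overlapping groups a difference was not detectable at this depth, and that of Spn28B rests on 14 reads in all.

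The cascades that serpins restrain were read from the same fit, so higher and lower means here are those on the log2(TPM + 1) scale. Of 16 genes of the extracellular Toll cascade in the table, all tested, none passed the adjusted p, with 9 higher and 7 lower means (median log2 fold change 0.04). An unadjusted limma p under 0.05 was reached by 2 of the 16, against 3.15% of all tested genes. These were Hayan (0.30, standard error 0.12), a protease of Toll activation and melanization, and PGRP-SD (-0.39, standard error 0.16), a recognition protein. Hayan lay at 4.95, 5.61 and 5.48 TPM in controls and at 5.93, 7.48 and 7.03 TPM in the InR-DN group. Its InR-DN libraries were all above the controls, as were those of 2.58% of all tested genes. The groups of PGRP-SD overlapped, since InR-DN replicate 2 (6.195 TPM) exceeded control replicate 3 (5.982 TPM). Of 8 genes of the intracellular Toll pathway none passed, with 5 higher and 3 lower means and a median of 0.03, and 0 of 8 had an unadjusted p under 0.05 by limma. Those with the smallest p were the adaptor genes Myd88 (-0.05) and tub (0.08). Of 10 melanization genes none passed, with 7 higher and 3 lower means and a median of 0.03. Hayan, the 1 gene of the 10 with an unadjusted limma p under 0.05, and yellow-f2 (0.20), a dopachrome conversion enzyme, had the smallest p there.

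Genes induced by Toll signalling are a readout of the cascade that serpins restrain. Of 9 tested targets, 2 had higher and 7 lower means in the InR-DN group on the log2(TPM + 1) scale. Their median log2 fold change was -0.33, and none passed the adjusted p. An unadjusted limma p under 0.05 was reached by 3 of the 9 (IM23, IM1 and Drs, the last named after its values were seen), against 3.15% of all tested genes. IM23, an immune-induced peptide gene, lay at 25.1, 20.6 and 14.6 TPM in controls and at 6.99, 11.3 and 6.90 TPM in the InR-DN group (log2 fold change -1.17, standard error 0.25, adjusted p = 0.752 by limma). IM1, of the same family, lay at 103.4, 81.9 and 88.3 TPM in controls and at 59.2, 69.0 and 46.3 TPM in the InR-DN group (log2 fold change -0.65, standard error 0.16, adjusted p = 0.974 by limma). Drs lay at 909, 767 and 758 TPM in controls and at 421, 726 and 413 TPM in the InR-DN group (log2 fold change -0.69, standard error 0.22). IM23, IM1 and Drs each had every InR-DN library below every control, as 3.78% of all tested genes did. For the serpins nec, Spn88Ea and Spn42Dd the groups overlapped, and the difference between serpins and targets was not tested.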

How the data were processed

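Data were taken from 1 table of TPM, deposited by the authors and labelled so per the file headers, covering 15010 genes in 6 libraries. Per the submitters' processing notes, TopHat and edgeR were among the tools, with no role or version recorded. The build, annotation and read counter are not stated there. Trizol was used for RNA extraction, per the labels' protocols. Columns were matched to samples by the letter of the group and the number of the replicate, and symbols to the BDGP6.54 annotation (all 28 serpins matched). TPM times annotated exon length was a whole multiple of 1 read for 94.7% of genes with a length (relative tolerance 1e-06) and for 27 of 28 serpins. Other genes were solved with another length, and 2 genes were not recovered. Floors (3 reads) cover counting error only, while the 95% intervals come from limma and reflect the spread between libraries within the groups.

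Groups were compared with limma 3.58.1 (R 4.3.3), with the trend option, applied to log2(TPM + 1). Genes needed 1 TPM or more in 3 libraries or more. P-values were Benjamini-Hochberg adjusted over 10816 genes and two-sided. The script was tested on simulated data. Members and lists were chosen with earlier results of these data known. The text names every serpin, the 2 members of each pathway list with the smallest p (none passed) and the 2 most abundant genes of each marker list. Of the lists, sphinx1, sphinx2 and 5 accessory gland genes had no row matched. Genes of overlapping position and those named under other observations were chosen after seeing values. Other settings were a pseudocount of 0.1 or 5, a filter of 5 TPM or none, rescaling by median of ratios or by quantiles, eBayes robust or without trend, the replicate number as a block, each library left out in turn and, chosen after seeing the data, limma voom on recovered reads (at least 10 in 3 libraries).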

Additional observations from a re-analysis of the deposited data

How the results depend on the processing

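No serpin passed the adjusted p under any of the 16 other settings. Over all genes, 1 passed with a pseudocount of 0.1, 1 with voom and 0 to 3 when a library was left out. The serpin median lay between -0.13 and 0.01 when a library was left out. With no filter all 28 serpins were fitted. Only Spn28B (3.57% of them) had an unadjusted limma p under 0.05, against 3.78% of all genes. Of 282 single-gene values, 267 kept their direction and 15 did not, and the cause was not tested. These had small log2 fold changes in the full fit. Leaving out a library gave -0.14 to 0.10 for Spn28Dc, -0.056 to 0.21 for Spn31A, -0.046 to 0.12 for Spn42Dc, -0.10 to 0.10 for Spn42Dd, -0.12 to 0.17 for nec, -0.18 to 0.076 for Spn47C, -0.096 to 0.074 for Spn55B and -0.10 to 0.12 for Spn77Ba. Spn55B was also at -0.016 with quantile normalization. The other 10 tested genes kept their direction throughout. Replicate numbers gave no sign of pairing in the correlation of library deviations. Same-numbered libraries correlated at -0.41, -0.18 and -0.13, and 0 of the 6 libraries correlated best with its own number. With the replicate block 0 genes and 0 serpins passed, and the serpin median stayed at -0.03. The block lowered the unadjusted limma p of Spn43Aa from 0.103 to 0.0624 and of Spn100A from 0.238 to 0.0917. For Spn88Eb it fell from 0.132 to 0.0922. For other serpins it rose, as for Spn42De from 0.122 to 0.193, so pairing of single genes is not excluded. Low reads limit the 10 genes under 1 TPM and also Spn43Aa and Spn100A, which had 2 and 4 reads in InR-DN replicate 2 and moved from -1.47 to -2.51 and from -0.68 to -1.48 with a pseudocount of 0.1.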

Other observations

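For the variable serpins the 5 most similar genes were looked up after seeing the data, by Pearson correlation of log2(TPM + 1) over the 6 libraries among genes with a residual SD over 0.5. No test was made, since such a search over many genes always returns close matches. For Spn43Aa the closest was Hr4, a nuclear receptor gene of the ecdysone response, at 3.58, 1.23 and 2.27 TPM in controls and at 0.933, 0.540 and 2.33 TPM in the InR-DN group. CG43366, CG13362, CG4500 and CG31002 followed. For Spn100A the closest was ImpE2, an ecdysone-inducible gene, at 20.9, 5.85 and 31.1 TPM in controls and at 2.64, 0.0262 and 30.1 TPM in the InR-DN group. The same 5 genes included tyn, which encodes an apical matrix protein of epithelia, at 6.94, 3.01 and 7.25 TPM in controls and at 2.39, 1.93 and 6.41 TPM in the InR-DN group. In all 3 named genes InR-DN replicate 2 was lowest, InR-DN replicate 1 next and InR-DN replicate 3 within the range of the controls. Their choice by likeness largely fixes this order, which is given as a description. For Spn88Eb the 5 were 3 small nucleolar RNAs, the eggshell gene Vm26Ab and yellow-k. Vm26Ab lay at 54.3, 138.9 and 19.5 TPM in controls and at 42.4, 159.8 and 93.9 TPM in the InR-DN group.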
